A study of Mus musculus with 6 samples.

Results

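The genes described here are 37 chaperones, chaperonin subunits, co-chaperones and heat shock factors of the cytosol and the mitochondrion, of 56691 genes in the table, taken by an exact match of their symbol to a list of names. The match uses no measured value, but the list of names was drawn up with earlier results of these data known. They were read in 6 RNA-seq libraries of 4T1, an established mouse mammary carcinoma cell line. The libraries formed 2 groups of 3. In the vehicle group the cells received vehicle alone, and in the KIRA6 group they received KIRA6 at 1 µmol/L, each for 4 h in culture, and the labels name no other agent or genetic change. KIRA6 is an inhibitor that occupies the kinase pocket of IRE1α, which senses folding stress in the endoplasmic reticulum, and thereby dampens the RNase of the same protein. The series as a whole concerns KIRA6, myeloid-derived suppressor cells and resistance to PD-1 blockade, and these libraries ask what KIRA6 does to the tumour cells themselves. A single cell line in culture, read at a single dose and time, is a limited model of a tumour, and since separate cultures are not stated in the labels for the 3 libraries of a group, the spread that p-values rest on may be technical.

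Chaperones bind proteins that are not yet folded or have lost their fold. HSP70 proteins grip short exposed stretches in a cycle of ATP binding and hydrolysis, which HSP40 proteins (J-domain proteins) start and HSP110 proteins and Bag proteins reset by exchanging the nucleotide. HSP90 matures kinases and steroid receptors with a set of co-chaperones, the ring-shaped CCT chaperonin folds actin and tubulin, and HSP60 with HSP10 forms the folding chamber of the mitochondrion. When unfolded protein accumulates in the cytosol, the transcription factor HSF1 binds heat shock elements and raises many of these genes together.

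The libraries held an estimated 16501650 to 21352600 fragments assigned to genes, and the 6 epithelial markers Epcam, Cdh1, Krt7, Krt8, Krt18 and Krt19 all exceeded 1 FPKM in every library. FPKM is the number of fragments scaled by exonic length and by the assigned fragments of the library, so levels can be set beside each other between genes. The 9 markers of leukocytes, endothelium, fibroblasts and muscle summed to 0.15 to 0.47 FPKM in vehicle and 0.51 to 0.82 FPKM with KIRA6, and Cd3e and Adgre1 were at 0 in all 6. Vehicle replicate 3 and KIRA6 replicate 1 stood apart from the rest on the second principal component (35.1% of the variance), at −55.92 and 44.46, where the other libraries lay between −8.01 and 12.96. This touched the chaperones: Vehicle replicate 3 was the lowest of its group for 25 of 35 tested members (71.4%), against 49.5% of all tested genes, and KIRA6 replicate 1 was the highest of its group for 19 of them (54.3%), against 39.6%. For a gene that is lower with KIRA6 and displaced in this way, both displacements bring the groups closer. Not all members were: Vehicle replicate 3 was the highest of its group for 8, and KIRA6 replicate 1 the lowest for 13. For Hspd1 and Cct2, which had lower means with KIRA6, both held, and the groups were moved apart. Results are therefore given with and without these libraries, whose removal was chosen after seeing the data and lowers the spread within groups by its construction.

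With KIRA6 chaperone transcripts changed in both directions, and calls of a rise were about as frequent as among all tested genes. In bulk RNA, fewer cells with a transcript and less transcript per cell cannot be told apart. Hspa8, Hspa4, Hsph1 and the CCT subunits Cct2 and Cct3 fell, while Cryab, Hspa4l, Hspa1b, Hspa2 and Dnajb4 rose, and Hsp90ab1, the most abundant member, was not called. Of the 37 members 35 reached a mean of 0.5 FPKM over the 6 libraries and were tested, while Hspa1a and Hspb1 did not. Limma called 5 members higher and 5 lower at an adjusted p below 0.05, where 15.6% and 7.98% of all 11778 tested genes were called higher and lower. Hspa2, counted among the 5 higher, passed the filter only through its KIRA6 level and so had to differ. The groups did not overlap for 14 tested members that were lower with KIRA6, against 14.1% of all genes, and for 6 that were higher, against 27.7%. In all, 24 of the 35 had a log2 fold change below 0 and 11 above it, and their median was −0.38, while the median of all tested genes was 0.16.

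The number called higher lay between 4 and 7 in every alternative. The share of all genes called higher ran from 6.94% without KIRA6 replicate 2 to 40.3% with array weights, which gave the 7. With all 6 libraries the 5 higher calls among 35 members lay near the share of all genes. The number called lower depended on the scaling and on single libraries. Scaling the libraries by the median ratio, which sets the median of all genes to −0.008, called 5 members higher and 17 lower (11.0% and 12.2% of all genes), quantile normalization called 5 and 11 (9.61% of all genes and 1182 of the 11778), and rescaling to TPM called 5 and 14 (13.4% and 9.09%). With Vehicle replicate 3 and KIRA6 replicate 1 both left out, 6 members were called higher and 21 lower (35.9% and 20.2% of all genes). These shares apply to every call given below without both libraries. Leaving out 1 library at a time, the fit called 1 member lower when Vehicle replicate 1, Vehicle replicate 2 or KIRA6 replicate 2 was missing and 2 when KIRA6 replicate 3 was, but 7 when KIRA6 replicate 1 and 16 when Vehicle replicate 3 was missing. Over all genes the lower calls were 4.42%, 3.45% and 3.35% of tested genes without Vehicle replicate 1, Vehicle replicate 2 and KIRA6 replicate 2, 4.38% and 6.52% when KIRA6 replicate 3 or KIRA6 replicate 1 was left out, and 11.3% when Vehicle replicate 3 was. The calls for Cryab, Hspa4l, Hspa1b and Hsph1 were kept in every alternative. That of Hspa2 was kept wherever it was tested, with the limit given above.

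**Figure D1:**
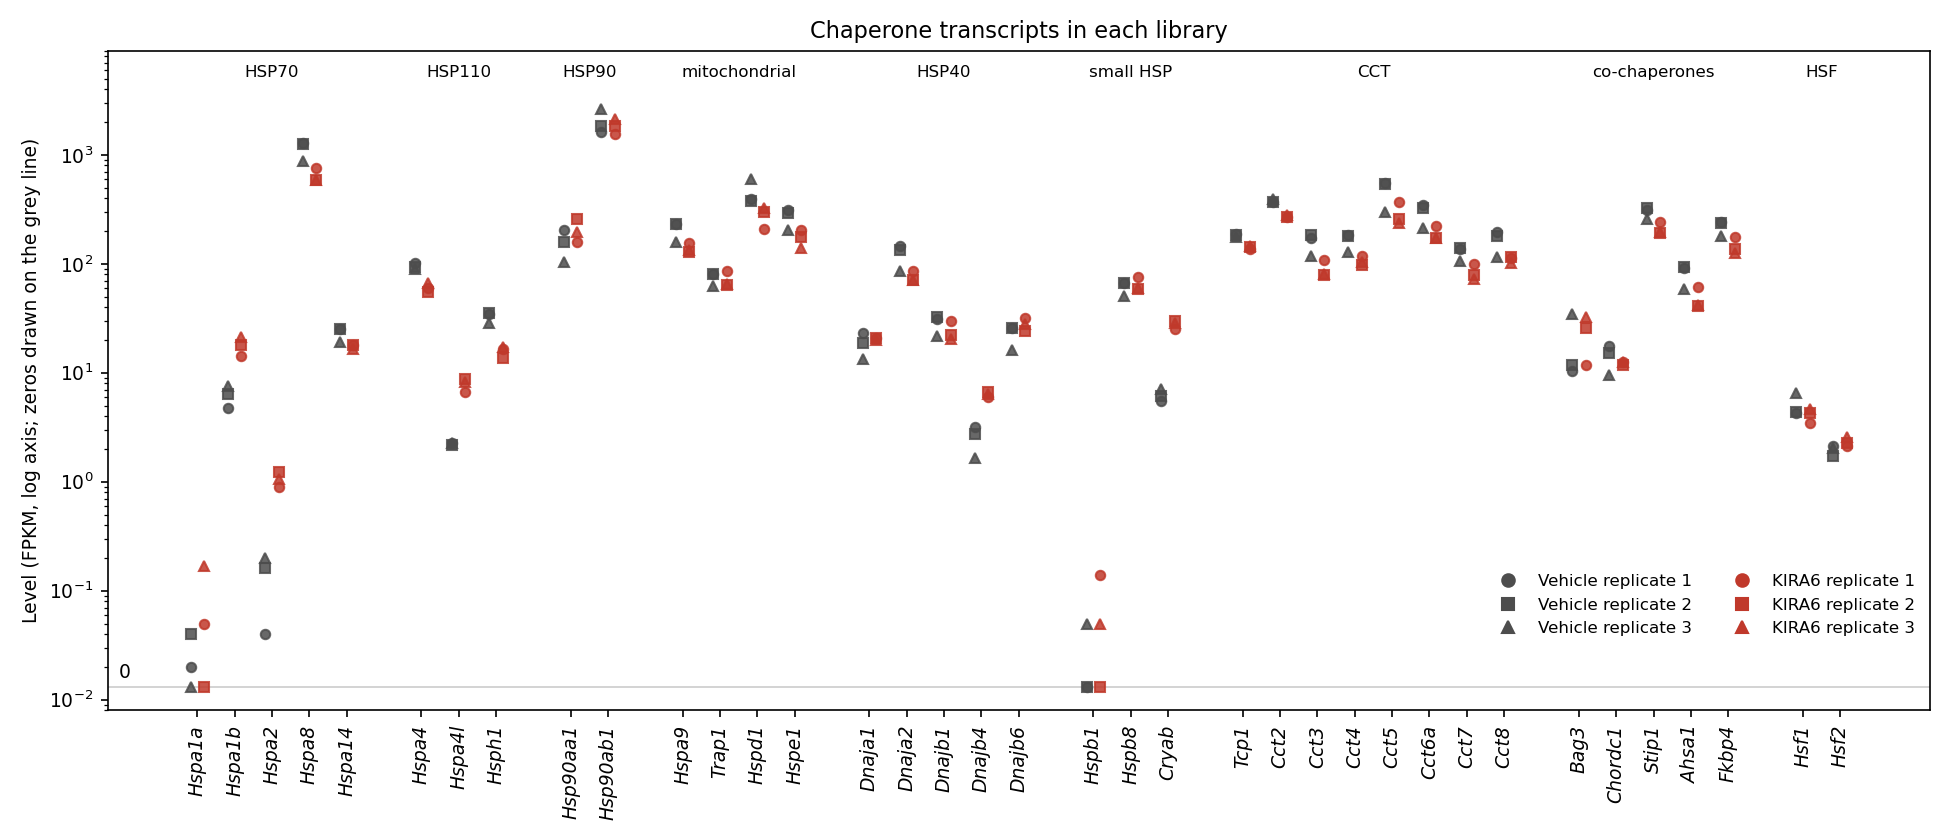
Level of each of the 37 members in each library, in FPKM on a log axis, ordered by family (grey, vehicle; red, KIRA6; the marker shape gives the replicate number; zeros lie on the grey line). The red points of Cryab, Hspa4l, Hspa1b, Hspa2 and Dnajb4 lie above all grey points, those of Hspa8, Hspa4, Hsph1, Cct2 and Cct3 below them, and Hspa1a and Hspb1 lie near 0 in all 6 libraries.

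**Figure D2:**
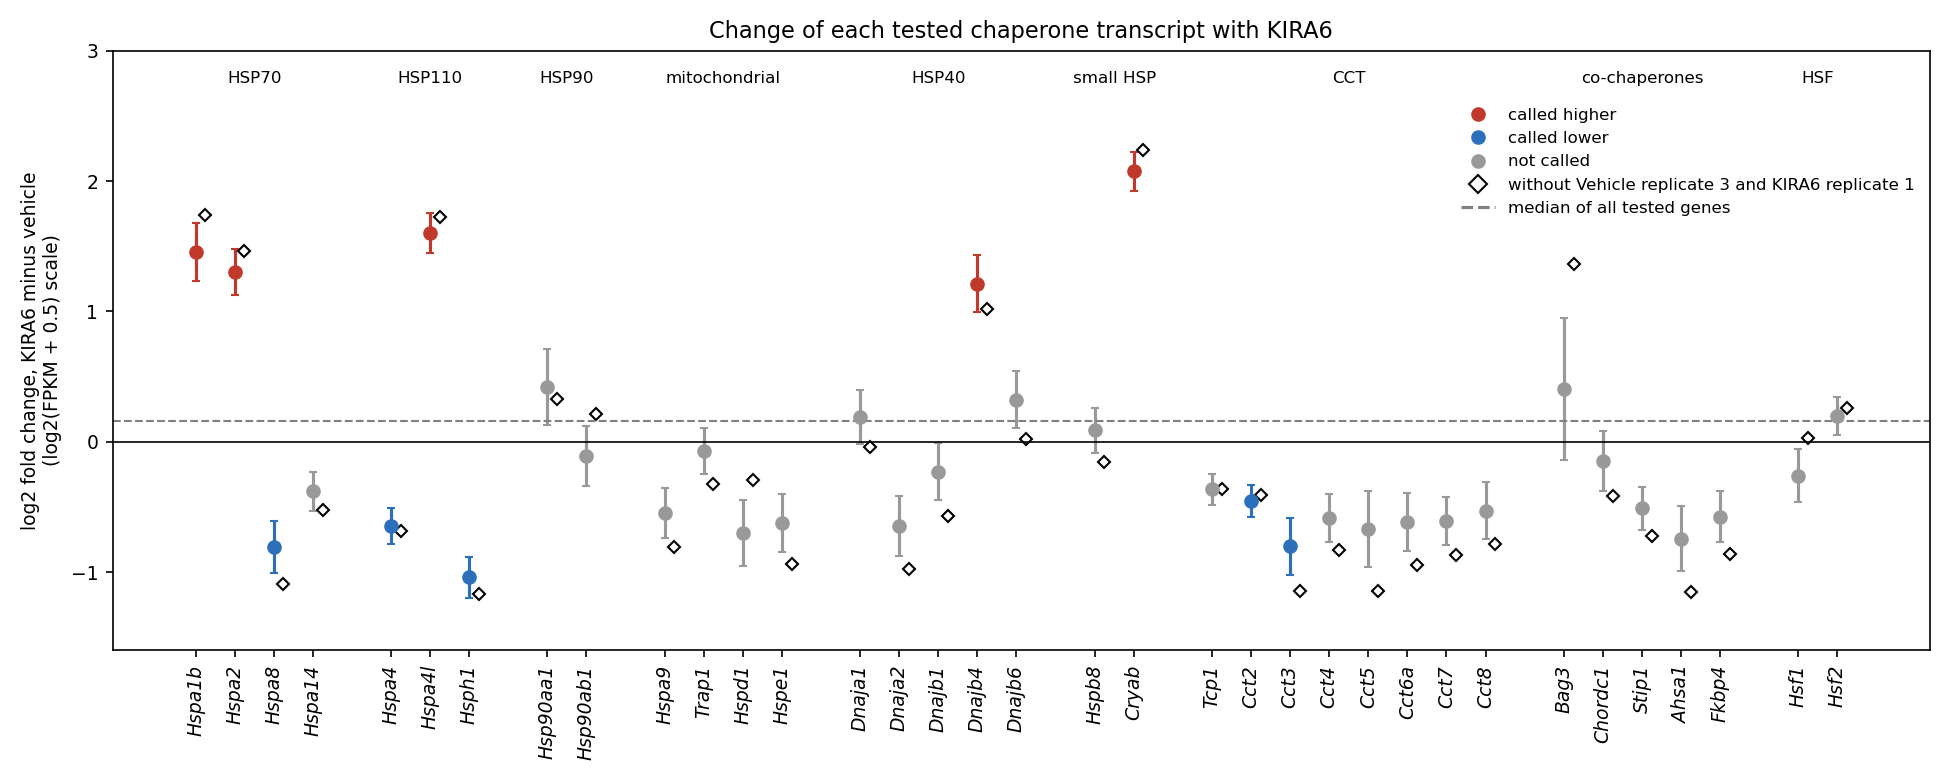
Log2 fold change of the 35 tested members, KIRA6 minus vehicle on the log2(FPKM + 0.5) scale, with limma standard errors from all 6 libraries (filled circles; red, called higher; blue, called lower; grey, not called). Open diamonds are the values without Vehicle replicate 3 and KIRA6 replicate 1, and the dashed line at 0.16 is the median of all tested genes. The increase of Cryab (2.07) was the largest of the 35, and every CCT subunit lies below 0.

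Summed over the 37 members, the level was 7385, 7427 and 7057 FPKM in the vehicle libraries and 5435, 5337 and 5562 FPKM with KIRA6. These sums were 1.92%, 1.97% and 2.04% of the summed FPKM of all genes in vehicle and 1.35%, 1.37% and 1.58% with KIRA6, so the 2 groups did not overlap. Hsp90ab1, Hspa8, Cct5, Hspd1 and Cct2 had the highest mean levels, and the 5 members that rose added little to the sum. The sum of the HSP110 genes was 119.5 to 138.9 FPKM in vehicle and 77.8 to 92.35 FPKM with KIRA6. The mitochondrial members summed to 975.8 to 1021 FPKM in vehicle and 654.1 to 667.5 FPKM with KIRA6, while the small heat shock proteins went the other way, from 57.39 to 73.13 FPKM up to 88.75 to 100.1 FPKM. HSP90 sums overlapped between the groups, at 1811, 1977 and 2713 FPKM in vehicle and 1696, 2106 and 2327 FPKM with KIRA6.

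**Figure D3:**
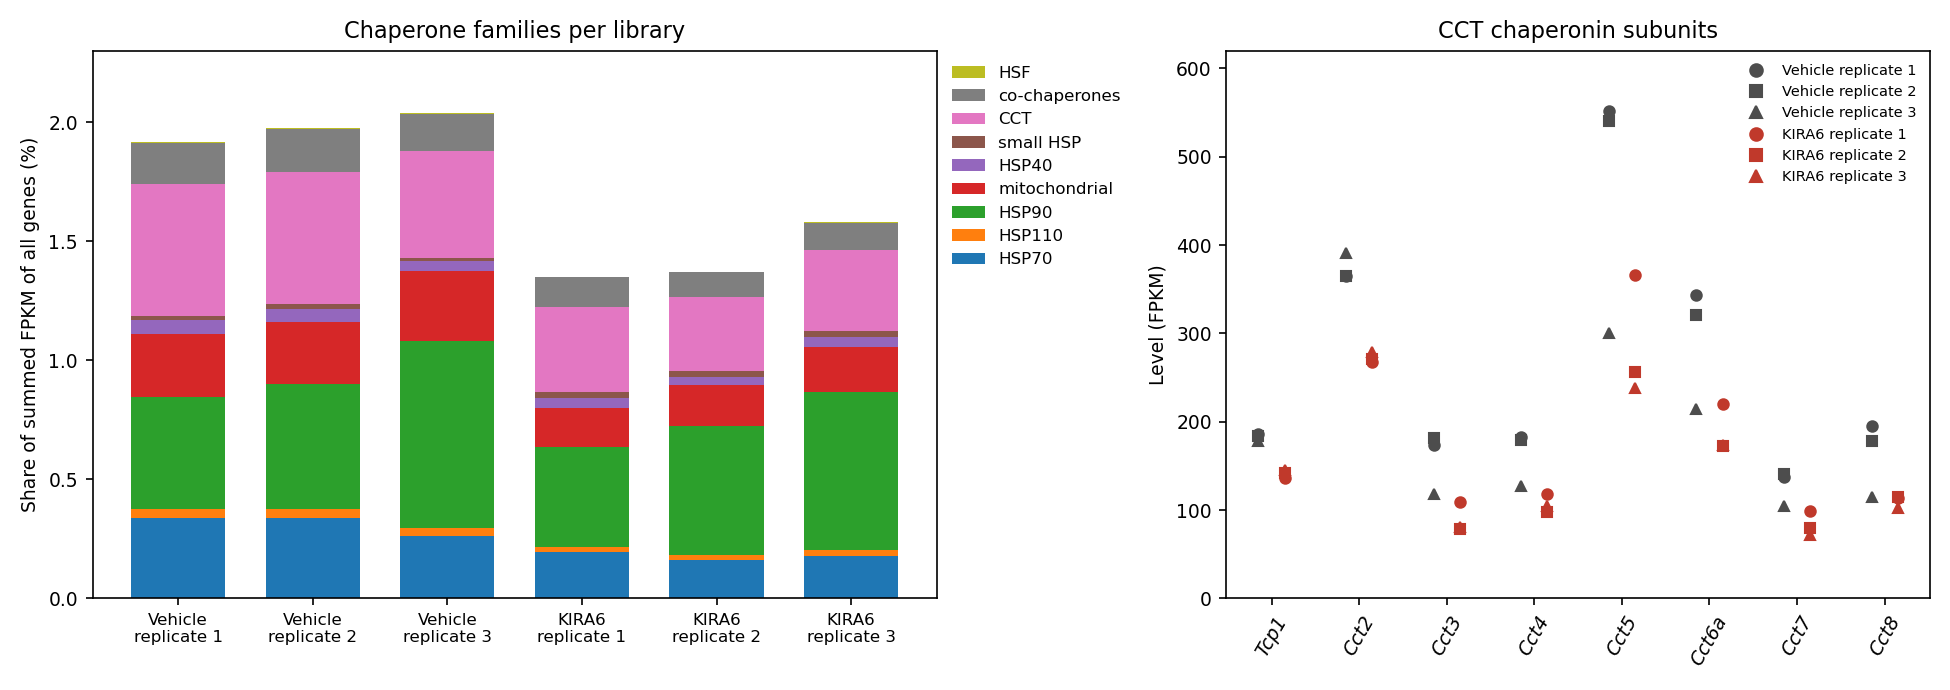
Left, share of the summed FPKM of all genes taken by each chaperone family in each library, in percent, stacked. The stacks reach 1.92% to 2.04% in vehicle and 1.35% to 1.58% with KIRA6. Right, FPKM of the 8 CCT subunits in each library (grey, vehicle; red, KIRA6; the marker shape gives the replicate number). Vehicle replicate 3 (grey triangles) is the lowest vehicle library for every subunit but Cct2.

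Among the HSP70 genes the constitutive member Hspa8 (HSC70), which serves general folding and clathrin uncoating, carried 93.8% to 97.7% of the family's summed FPKM in every library. Hspa8 (ENSMUSG00000015656, chromosome 9, 40712280 to 40721383 on GRCm39) was at 1275, 1245 and 885.2 FPKM in vehicle and at 755.0, 590.2 and 589.9 FPKM with KIRA6. All 3 KIRA6 libraries lay below all vehicle libraries, with the lowest vehicle value again in replicate 3. Hspa8 fell from 1135 ± 217 to 645.0 ± 95.2 FPKM (SD, n = 3 each), a log2 change of −0.81 ± 0.20 (SE, adjusted p = 0.0302). The call was lost in 5 of 18 alternatives (adjusted p up to 0.1212), in 4 of them because a single library was missing (Vehicle replicate 1 or 2, or KIRA6 replicate 2 or 3). Without both libraries that stood apart the value was −1.09.

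The level of Hspa8 is uncertain because a processed pseudogene took many fragments of closely related sequence. Gm15459 (chromosome 5, 5831615 to 5833555, exonic length 1941 bases) shares 34.6% of the 50-base windows of Hspa8 transcripts, and it was listed at 1906, 1888 and 1348 FPKM in vehicle and at 1135, 868.8 and 887.0 FPKM with KIRA6. Its level was 1.47 to 1.52 times that of Hspa8 in every library, the narrowest of the within-library ratios computed, and its fragments came to 66.4% to 68.7% of those assigned to Hspa8. The log2 fold change of Gm15459 was −0.82 ± 0.20 (SE, adjusted p = 0.02825), and a further Hspa8 pseudogene, Gm8355, had −0.90 ± 0.23 (SE, adjusted p = 0.03362) at 10.01 and 5.12 FPKM. How fragments from shared stretches were assigned is not given in the sources used here, so gene and pseudogene cannot be told apart, and the direction was the same for all 3.

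Hspa1b, one of the pair of stress-inducible HSP70 genes, moved against Hspa8. Hspa1b (ENSMUSG00000090877, chromosome 17, 35175412 to 35178214) was at 4.72, 6.36 and 7.54 FPKM in vehicle and at 14.4, 17.8 and 21.4 FPKM with KIRA6. Its lowest KIRA6 library lay above its highest vehicle library. Hspa1b rose from 6.21 ± 1.42 to 17.8 ± 3.49 FPKM (SD, n = 3 each), a log2 change of 1.46 ± 0.22 (SE, adjusted p = 0.005444), and to 1.74 without both libraries that stood apart. Its level relative to Hspa8 went from 0.0037, 0.0051 and 0.0085 in vehicle to 0.0190, 0.0302 and 0.0362 with KIRA6, a ratio of means of 4.93. Since Hspa1b was higher and Hspa8 lower without overlap, this ratio had to separate the groups. Hspa1b stayed a small part of HSP70 transcript, at 0.362% to 0.827% in vehicle and 1.82% to 3.39% with KIRA6.

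Hspa1a, the neighbouring copy (chromosome 17, 35188166 to 35191132), was near the limit of detection: its values of 0.02, 0.04 and 0 FPKM in vehicle and 0.05, 0 and 0.17 FPKM with KIRA6 rest on 1, 2, 0, 3, 0 and 10 fragments. A count of 0 allows up to 3 fragments, which is 0.0473 to 0.0613 FPKM for this gene, and this limit covers counting error only. The copies share 58.8% of the 50-base windows of Hspa1a transcripts and 62.3% of those of Hspa1b, so the division of fragments between them is uncertain. Their upstream sequences, shown because 2 nearly identical promoters stand before genes listed at such different levels, come from the RefSeq promoter table on GRCm38.p6, each on the minus strand over the 250 bases before the annotated start (chr17:34972157-34972406 for Hspa1a and chr17:34959239-34959488 for Hspa1b), with the bases that differ in capitals.
Hspa1a: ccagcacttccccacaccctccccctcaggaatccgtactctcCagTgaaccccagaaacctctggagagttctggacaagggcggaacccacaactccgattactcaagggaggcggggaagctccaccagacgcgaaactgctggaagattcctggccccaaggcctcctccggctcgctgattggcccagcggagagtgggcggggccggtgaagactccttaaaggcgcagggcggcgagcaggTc
Hspa1b: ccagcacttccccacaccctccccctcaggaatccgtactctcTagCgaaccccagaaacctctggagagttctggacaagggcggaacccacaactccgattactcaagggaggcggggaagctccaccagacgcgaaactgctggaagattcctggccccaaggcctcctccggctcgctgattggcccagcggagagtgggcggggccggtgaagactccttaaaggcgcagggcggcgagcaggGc
The windows are 98.8% identical. They differ at 3 of 250 positions, C44T, T47C and T249G, with the base of Hspa1a first and positions counted from 1 at the 5′ end of the window. Both hold a 2-unit heat shock element, the inverted pair of 3-base units written GAANNTTC or TTCNNGAA, whose first base lies 104 bases before the start.

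Hspa2, an HSP70 gene best known from the testis, was at 0.04, 0.16 and 0.20 FPKM in vehicle, on 2, 7 and 10 fragments, and at 0.89, 1.22 and 1.07 FPKM with KIRA6, on 50, 59 and 56 fragments. The groups stood well apart, though at levels where few fragments set the value. Hspa2 rose from 0.133 ± 0.0833 to 1.06 ± 0.165 FPKM (SD, n = 3 each), with a log2 change of 1.30 ± 0.18 (SE) that the pseudocount of 0.5 FPKM holds down: limma-voom on estimated fragments gave 3.09. Because Hspa2 passed the filter only through its KIRA6 level, its call is not counted as support. Hspa14, a ribosome-associated HSP70 relative, had 23.3 ± 3.40 and 17.7 ± 0.838 FPKM (SD, n = 3 each), lower in 3 of 3 KIRA6 libraries but not called (log2 fold change −0.38, adjusted p = 0.115). Median-ratio scaling called Hspa14 lower (adjusted p = 0.03839).

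The HSP110 genes, whose products exchange the nucleotide of HSP70 and hold unfolded chains, changed in opposite directions. Hspa4, the most abundant of them, was at 101.9, 94.1 and 88.8 FPKM in vehicle and at 59.5, 55.4 and 66.8 FPKM with KIRA6. Hspa4 (ENSMUSG00000020361, chromosome 11, 53150641 to 53191284) fell from 94.9 ± 6.60 to 60.6 ± 5.80 FPKM (SD, n = 3 each), a log2 change of −0.65 ± 0.14 (SE, adjusted p = 0.01725). This call was lost when Vehicle replicate 1, Vehicle replicate 2 or KIRA6 replicate 2 was left out (adjusted p up to 0.08774). Hsph1 (HSP105; ENSMUSG00000029657, chromosome 5, 149537752 to 149559841) was at 34.8, 35.4 and 28.5 FPKM in vehicle and at 16.4, 13.6 and 17.2 FPKM with KIRA6. Hsph1 fell from 32.9 ± 3.84 to 15.7 ± 1.9 FPKM (SD, n = 3 each), a log2 change of −1.04 ± 0.16 (SE, adjusted p = 0.005289) that was the largest decrease among the 35 members in the fit of all 6 libraries.

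Hspa4l, the HSP110 paralogue also called APG-1, rose instead. It stood at 2.29, 2.19 and 2.29 FPKM in vehicle, the tightest vehicle group of the HSP110 genes, and at 6.65, 8.84 and 8.30 FPKM with KIRA6. Hspa4l (ENSMUSG00000025757, chromosome 3, 40699814 to 40750538) went from 2.26 ± 0.0577 to 7.93 ± 1.14 FPKM (SD, n = 3 each), a log2 change of 1.60 ± 0.15 (SE, adjusted p = 0.001366). Within each library its ratio to Hspa4 was 0.0225, 0.0233 and 0.0258 in vehicle and 0.112, 0.160 and 0.124 with KIRA6, and its ratio to Hsph1 was 0.0618 to 0.0804 in vehicle and 0.406 to 0.651 with KIRA6. These ratios need no scaling between libraries. They had to separate the groups, because Hspa4l was higher and Hspa4 and Hsph1 were lower without overlap, so their separation adds no support. The share of Hspa4l in HSP110 transcript thus went from between 1.65% and 1.92% to between 8.05% and 11.4%, while the share of Hspa4 was 71.4% to 74.3% in vehicle and 71.2% to 72.4% with KIRA6.

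**Figure D4:**
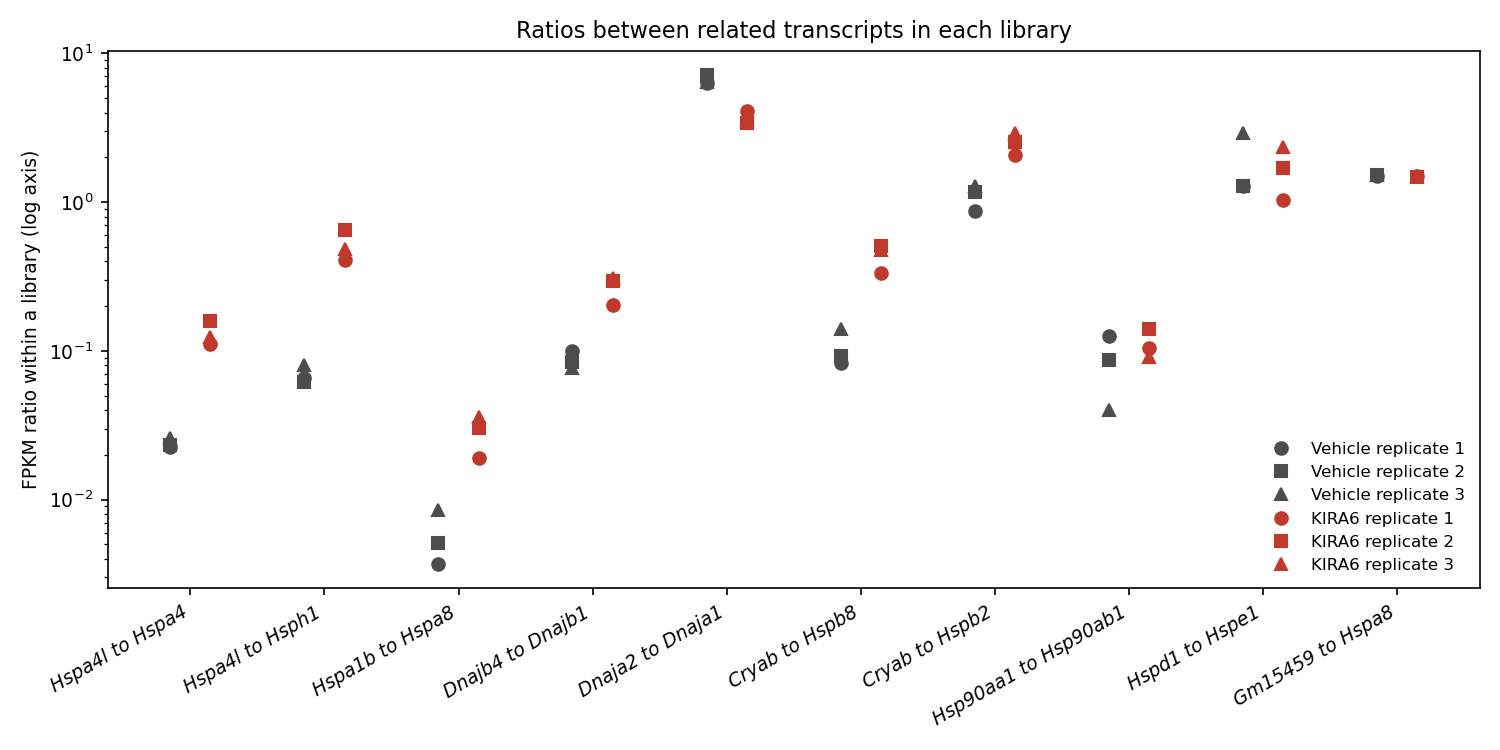
FPKM ratio between related transcripts within each library, on a log axis (grey, vehicle; red, KIRA6; the marker shape gives the replicate number). The ratios with Hspa4l, Hspa1b, Dnajb4 and Cryab as numerator were higher in all 3 KIRA6 libraries, that of Dnaja2 to Dnaja1 was lower (3.42 to 4.11 against 6.34 to 7.14), and the last 3 overlapped between the groups. Those with Hspa4l or Hspa1b had to be higher, because numerator and denominator each separated the groups in opposite directions. The ranges of the single genes also fixed the direction for those with Dnajb4 or Cryab, so these ratios add no support. Gm15459 to Hspa8 stayed between 1.47 and 1.52 in every library.

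Limma called neither HSP90 gene, and neither reached an unadjusted p below 0.05 or a limma-voom call. Hsp90ab1, the constitutive HSP90β and the most abundant member (rank 17 of all tested genes by mean level), was at 1609, 1819 and 2609 FPKM in vehicle and at 1536, 1847 and 2133 FPKM with KIRA6. Its groups overlapped, with the highest value in Vehicle replicate 3. Hsp90ab1 (ENSMUSG00000023944, chromosome 17, 45878701 to 45884197) had 2012 ± 527 and 1839 ± 299 FPKM (SD, n = 3 each), a log2 change of −0.11 ± 0.23 (SE, adjusted p = 0.7673) with a 95% interval of −0.66 to 0.43, which turned to 0.21 without both libraries that stood apart. Hsp90aa1, the inducible HSP90α, was at 202.6, 158.0 and 104.2 FPKM in vehicle and at 159.4, 259.4 and 193.8 FPKM with KIRA6 (log2 fold change 0.42, 95% interval −0.27 to 1.11, adjusted p = 0.3416). The value for Hsp90aa1 depended on single libraries: leaving out Vehicle replicate 1 gave 0.64, leaving out Vehicle replicate 3 gave 0.16, and median-ratio scaling gave 0.23. Array weights called it higher, at 0.52 (adjusted p = 0.0248). Vehicle replicate 3 held the highest Hsp90ab1 and the lowest Hsp90aa1 of all 6 libraries, and the ratio of Hsp90aa1 to Hsp90ab1 overlapped between the groups.

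The HSP40 genes, which deliver clients to HSP70, held 1 call among 5 tested members. Dnajb4 (ENSMUSG00000028035, chromosome 3, 151884148 to 151915939) was at 3.15, 2.74 and 1.65 FPKM in vehicle and at 6.03, 6.60 and 6.34 FPKM with KIRA6. Dnajb4 rose from 2.51 ± 0.775 to 6.32 ± 0.285 FPKM (SD, n = 3 each), a log2 change of 1.21 ± 0.22 (SE, adjusted p = 0.0102), and the call was lost only without KIRA6 replicate 2 (adjusted p = 0.05376). Its closest relative in the list, Dnajb1 (HSP40), a classical target of HSF1, had 28.5 ± 5.96 and 24.2 ± 4.87 FPKM (SD, n = 3 each; log2 fold change −0.23, adjusted p = 0.4907). Without both libraries that stood apart Dnajb1 was called lower, at −0.57 (adjusted p = 0.002929). The ratio of Dnajb4 to Dnajb1 was 0.0761 to 0.1002 in vehicle and 0.203 to 0.309 with KIRA6, which restates the rise of Dnajb4.

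Dnaja2, the most abundant HSP40 gene of the list (ENSMUSG00000031701, chromosome 8, 86264262 to 86281973), was at 145.9, 135.1 and 85.2 FPKM in vehicle and at 85.8, 70.8 and 71.5 FPKM with KIRA6. KIRA6 replicate 1 and Vehicle replicate 3 met at the same level, and all other KIRA6 values were lower. Dnaja2 had 122.1 ± 32.4 and 76.0 ± 8.43 FPKM (SD, n = 3 each), a log2 change of −0.65 ± 0.23 that was not called (SE, adjusted p = 0.08519), and −0.98 and called without both libraries that stood apart (adjusted p = 0.0001808). Relative to Dnaja1, a class A paralogue with 18.4 ± 4.92 and 20.5 ± 0.484 FPKM (SD, n = 3 each), Dnaja2 separated the groups: the ratio was 6.34, 7.14 and 6.44 in vehicle and 4.11, 3.42 and 3.59 with KIRA6. Its share of the HSP40 genes was 61.7% to 63.6% in vehicle and 48.8% to 49.3% with KIRA6. Dnajb6, a suppressor of aggregation, was at 16.3 to 25.8 FPKM in vehicle and 24.0 to 31.6 FPKM with KIRA6 (log2 fold change 0.32, adjusted p = 0.3267), and its log2 fold change was 0.02 without both libraries that stood apart. Fragments of Dnaja1 and of Smu1 on the opposite strand could mix over 608 overlapping bases.

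Small heat shock proteins hold unfolded proteins without ATP. Of these, Cryab had the largest increase of all tested members on the log2(FPKM + 0.5) scale. The ratio of group means was larger for Hspa2, whose vehicle level rests on few fragments, at 7.95 against 4.46 for Cryab. Cryab (αB-crystallin; ENSMUSG00000032060, chromosome 9, 50662625 to 50667936) was at 5.46, 6.15 and 7.09 FPKM in vehicle and at 25.0, 29.8 and 28.6 FPKM with KIRA6. Every KIRA6 library lay far above every vehicle library. Cryab rose from 6.23 ± 0.818 to 27.8 ± 2.53 FPKM (SD, n = 3 each), a log2 change of 2.07 ± 0.15 (SE, adjusted p = 0.0006733), within 1.89 to 2.24 over all alternatives. Hspb2, a small heat shock gene that overlaps Cryab by 1030 bases on the opposite strand, rose too, from 5.68 ± 0.527 to 11.2 ± 1.23 FPKM (SD, n = 3 each), with a log2 change of 0.92 (adjusted p = 0.006643). The libraries were made to keep the strand, but the strand setting of the counting is not given in the sources used here, so their fragments cannot be told apart with certainty. Cryab still grew relative to Hspb2, from 0.872, 1.18 and 1.28 in vehicle to 2.07, 2.55 and 2.92 with KIRA6.

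Hspb8, which works with Bag3 in selective autophagy, was the most abundant small heat shock gene (ENSMUSG00000041548, chromosome 5, 116546550 to 116560923). It was at 66.0, 67.0 and 50.2 FPKM in vehicle and at 75.0, 59.1 and 60.1 FPKM with KIRA6, so the groups overlapped. Hspb8 had 61.1 ± 9.38 and 64.7 ± 8.91 FPKM (SD, n = 3 each), a log2 change of 0.09 ± 0.17 (SE, 95% interval −0.33 to 0.50, adjusted p = 0.7619), which was −0.10 with median-ratio scaling. With Cryab higher and Hspb8 overlapping, the ratio of Cryab to Hspb8 went from 0.0828, 0.0918 and 0.141 in vehicle to 0.333, 0.505 and 0.475 with KIRA6. This restates the rise of Cryab. Hspb1 (HSP27, called HSP25 in the mouse) was close to absent from the table, at 0, 0 and 0.05 FPKM in vehicle and 0.14, 0 and 0.05 FPKM with KIRA6, on at most 3 fragments. A count of 0 allows up to 0.136 to 0.176 FPKM for Hspb1. Its processed pseudogene Hsp25-ps1, which shares 48.8% of its windows, was listed at 0 in all 6 libraries.

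The mitochondrial chaperones were all at lower mean levels with KIRA6, and limma called none of the 4. An unadjusted p below 0.05 was reached by 3, but the share of all genes below it was not computed. Limma-voom called 0. Hspd1 (HSP60; ENSMUSG00000025980, chromosome 1, 55116994 to 55127402), the barrel of the mitochondrial chaperonin and the most abundant of them, was at 395.2, 373.0 and 597.9 FPKM in vehicle and at 210.5, 298.0 and 327.9 FPKM with KIRA6. The groups did not overlap, and Vehicle replicate 3 was here the highest library. Hspd1 had 455.4 ± 124 and 278.8 ± 61.0 FPKM (SD, n = 3 each), a log2 change of −0.70 ± 0.25 (SE, adjusted p = 0.09076), which shrank to −0.30 without both libraries that stood apart (adjusted p = 0.06259). Hspe1 (HSP10), the lid of the same chamber, was at 308.8, 291.5 and 203.4 FPKM in vehicle and at 204.0, 176.0 and 138.7 FPKM with KIRA6 (log2 fold change −0.62, adjusted p = 0.08931). Hspe1 was called lower without both, at −0.94 (adjusted p = 0.0008528). The ratio of Hspd1 to Hspe1 varied more between replicates than between groups: it was 1.28, 1.28 and 2.94 in vehicle and 1.03, 1.69 and 2.36 with KIRA6.

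Hspd1 and Hspe1 stand head to head and overlap by 112 bases on opposite strands in the GRCm39 gene models of the table. The interval between their RefSeq starts is shown because it is the common promoter of both, 215 bases on the plus strand of GRCm38.p6 (chr1:55087933-55088147), read towards Hspe1, with the heat shock element in capitals.
Hspe1-Hspd1: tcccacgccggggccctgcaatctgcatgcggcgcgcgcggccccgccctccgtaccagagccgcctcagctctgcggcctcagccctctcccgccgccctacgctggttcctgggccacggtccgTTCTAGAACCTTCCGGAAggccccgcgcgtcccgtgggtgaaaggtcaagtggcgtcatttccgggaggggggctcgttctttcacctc
The capitals are successive units TTC and GAA in alternating orientation, which hold the 3-unit element in either reading, and they begin 89 bases before the start of Hspe1 and 144 bases before that of Hspd1 on its own strand. Both genes share this window, yet their levels parted in Vehicle replicate 3, where Hspd1 was 1.56 times and Hspe1 0.678 times the mean of the other vehicle libraries. The HSP70 of the matrix, Hspa9 (mortalin), was at 233.3, 230.1 and 157.1 FPKM in vehicle and at 154.6, 129.4 and 135.1 FPKM with KIRA6, without overlap and without a call (log2 fold change −0.55, adjusted p = 0.08748). It was called lower with median-ratio scaling (adjusted p = 0.03831) and, at −0.81, without both libraries that stood apart (adjusted p = 0.0004694). Trap1, the mitochondrial HSP90, had 74.9 ± 10.8 and 71.3 ± 11.8 FPKM (SD, n = 3 each; log2 fold change −0.07, adjusted p = 0.8144), which quantile normalization turned to 0.03. Without both libraries that stood apart Trap1 was called lower, at −0.33 (adjusted p = 0.02287).

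The CCT chaperonin is built of 8 different subunits in 1 ring, and all 8 transcripts were at lower mean levels with KIRA6. Their log2 fold changes ran from −0.80 for Cct3 to −0.37 for Tcp1, with a median of −0.60, where the median of all tested genes was 0.16. Limma called Cct2 and Cct3 lower, 2 of 8 where 7.98% of all genes were called lower. Without both libraries that stood apart all 8 were called, where 20.2% of all genes were, and the median was −0.85. With median-ratio scaling 6 of 8 were called, with quantile normalization 4, with TPM 5, with array weights 8 (where 23.9% of all genes were lower) and with no filter on low values 0 (3.18%). The number was 0 when Vehicle replicate 1 or 2 or KIRA6 replicate 2 or 3 was left out, 2 when KIRA6 replicate 1 was and 6 when Vehicle replicate 3 was.

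Cct2 (ENSMUSG00000034024, chromosome 10, 116886906 to 116899719) had, with Tcp1, the smallest spread of the subunits relative to its level. Cct2 was at 365.4, 365.6 and 390.5 FPKM in vehicle and at 267.2, 270.7 and 279.5 FPKM with KIRA6. Cct2 fell from 373.8 ± 14.5 to 272.5 ± 6.34 FPKM (SD, n = 3 each), a log2 change of −0.46 ± 0.12 (SE, adjusted p = 0.03885), a call lost when any 1 library was left out (adjusted p up to 0.1441). Cct3 (ENSMUSG00000001416, chromosome 3, 88204423 to 88229074) was at 173.6, 181.7 and 118.6 FPKM in vehicle and at 109.1, 79.1 and 81.0 FPKM with KIRA6. Cct3 fell from 157.9 ± 34.3 to 89.7 ± 16.8 FPKM (SD, n = 3 each), a log2 change of −0.80 ± 0.22 (SE, adjusted p = 0.0414), a call lost in 5 of 18 alternatives (adjusted p up to 0.1512), in 4 of them because a single library was missing (Vehicle replicate 1 or 2, or KIRA6 replicate 2 or 3). Cct5 (ENSMUSG00000022234, chromosome 15, 31590946 to 31601950), the most abundant subunit by its mean, was at 551.7, 540.3 and 300.3 FPKM in vehicle and at 366.4, 256.1 and 237.9 FPKM with KIRA6. Vehicle replicate 3 lay among the KIRA6 libraries for Cct5, which had 464.1 ± 142 and 286.8 ± 69.6 FPKM (SD, n = 3 each) and a log2 change of −0.67 ± 0.29 that was not called (SE, adjusted p = 0.1468).

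The remaining subunits were not called. Tcp1, the founding subunit, had 182.5 ± 4.21 and 141.6 ± 4.46 FPKM (SD, n = 3 each), without overlap (adjusted p = 0.06928). Cct7, Cct4, Cct6a and Cct8 had log2 fold changes of −0.61, −0.59, −0.62 and −0.53 with adjusted p of 0.05665, 0.06016, 0.08905 and 0.1315. The groups did not overlap for 6 of the 8 subunits, where 14.1% of all genes were lower without overlap. The subunits are needed in equal number in the ring, but their transcripts were not equal: the highest was 3.42 to 4.02 times the lowest in every library, and the coefficient of variation over the 8 was 52.7% to 53.4% in vehicle and 50.1% to 54.2% with KIRA6. Without both libraries that stood apart the log2 changes of the subunits spread from −1.14 for Cct3 and Cct5 to −0.36 for Tcp1. Tcp1, Cct6a and Cct7 overlap Mrpl18, Psph and Pradc1 on the opposite strand by 645, 452 and 457 bases.

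Limma and limma-voom called none of the 5 co-chaperones. Of these, 4 had lower means, and 3 had an unadjusted p below 0.05, a threshold for which no share of all genes was computed. Stip1 (HOP; ENSMUSG00000024966, chromosome 19, 6998070 to 7017335), which bridges HSP70 and HSP90 and was the most abundant, was at 310.4, 323.0 and 256.9 FPKM in vehicle and at 240.8, 189.6 and 194.5 FPKM with KIRA6. Its groups did not overlap. Stip1 had 296.8 ± 35.1 and 208.3 ± 28.3 FPKM (SD, n = 3 each), a log2 change of −0.51 ± 0.17 (SE, adjusted p = 0.06666), and it was called lower with median-ratio scaling (adjusted p = 0.03063). Fkbp4 (FKBP52), a prolyl isomerase of steroid receptor complexes, had 218.5 ± 34.6 and 146.7 ± 26.9 FPKM (SD, n = 3 each; adjusted p = 0.07611). Ahsa1 (AHA1), which stimulates the ATPase of HSP90, had 81.4 ± 19.6 and 48.2 ± 11.7 FPKM (SD, n = 3 each; adjusted p = 0.07367). The ratio of Hsp90aa1 to Ahsa1 was 1.69 to 2.21 in vehicle and 2.58 to 6.31 with KIRA6, without overlap. Chordc1, a zinc-binding partner of HSP90, had 14.1 ± 4.15 and 12.3 ± 0.501 FPKM (SD, n = 3 each; log2 fold change −0.15, adjusted p = 0.6924). Without both libraries that stood apart all 4 were called lower, where 20.2% of all genes were. The log2 changes were −0.72 for Stip1, −0.86 for Fkbp4, −1.15 for Ahsa1 (adjusted p = 7.212e-05) and −0.42 for Chordc1 (adjusted p = 0.02168). Ahsa1, Fkbp4 and Stip1 were also called lower without Vehicle replicate 3 alone (adjusted p = 0.0171, 0.02961 and 0.03389), where 11.3% of all genes were. They were called lower with median-ratio scaling and with TPM too, where 12.2% and 9.09% of all genes were.

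Bag3, a nucleotide exchange factor and HSF1 target that links HSP70 to autophagy, had the largest standard error of the 35 tested members. It was at 10.3, 11.7 and 34.4 FPKM in vehicle and at 11.8, 25.8 and 32.7 FPKM with KIRA6. Vehicle replicate 3 held the highest value of all 6, 3.12 times the mean of the other vehicle libraries, and KIRA6 replicate 1 lay at the vehicle level. The log2 fold change of Bag3 was 0.41 ± 0.55 (SE, 95% interval −0.90 to 1.71, adjusted p = 0.6408). Without both libraries it was 1.36 and called (adjusted p = 0.0001807), without Vehicle replicate 3 alone 0.94 (adjusted p = 0.1406) and without KIRA6 replicate 1 alone 0.83 (adjusted p = 0.2974).

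Neither heat shock factor was called by limma or limma-voom, and neither had an unadjusted p below 0.05. Hsf1 (ENSMUSG00000022556, chromosome 15, 76361622 to 76386113), the more abundant, was at 4.27, 4.41 and 6.56 FPKM in vehicle and at 3.44, 4.29 and 4.61 FPKM with KIRA6, with overlapping groups. Hsf1 had 5.08 ± 1.28 and 4.11 ± 0.605 FPKM (SD, n = 3 each), a log2 change of −0.26 ± 0.21 (SE, adjusted p = 0.4088) that was 0.03 without both libraries that stood apart. Hsf2 was at 2.13, 1.73 and 2.02 FPKM in vehicle and at 2.14, 2.25 and 2.57 FPKM with KIRA6 (log2 fold change 0.20, adjusted p = 0.3812, and −0.14 with quantile normalization). HSF1 is regulated mainly after translation, so its transcript level does not report its activity.

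Heat shock elements were searched in the RefSeq promoter windows of GRCm38.p6, 250 bases before to 50 after each start, because HSF1 is known to raise many, though not all, genes of this kind. Of the 37 members 30 had an entry, with 39 windows in all. Cryab, Hspa8, Hsp90aa1, Hsp90ab1, Hspa9, Hsf1 and Cct4 had none. The 3-unit element, written GAANNTTCNNGAA or TTCNNGAANNTTC so that both strands are covered, stood in 198 of 32851 windows of the whole table (0.603%) and in 7 of the 39 member windows. These belong to 5 of the 30 members, namely Chordc1, Dnajb6, Hspd1, Hspe1 and Hsph1. Besides the interval between Hspd1 and Hspe1 shown above, the matches are printed here with their units in capitals as far as they run. They lie at chr9:18292263-18292285 on the plus strand for Chordc1, chr5:149636288-149636300 on the minus strand for Hsph1 and chr5:29735852-29735864 on the plus strand for Dnajb6.
Chordc1: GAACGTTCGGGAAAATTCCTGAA
Hsph1: TTCTGGAAAGTTC
Dnajb6: GAATCTTCCGGAA
The first base of these runs lies 4 bases before the start of Chordc1, at base 37 after the start of Hsph1 and 46 bases before the start of Dnajb6. The Chordc1 run holds 3 overlapping matches. Of the 5 genes Hsph1 fell and the other 4 were not called, with log2 fold changes of −0.15 for Chordc1, 0.32 for Dnajb6, −0.70 for Hspd1 and −0.62 for Hspe1. The shorter 2-unit element, which every 3-unit match contains, stood in 15.1% of all windows and in 18 of the 39 member windows. These belong to 16 of the 30 members, among them Hspa1b and Dnajb4, which rose, and Hsph1 and Cct2, which fell. Dnajb1, named above as a classical HSF1 target, had neither element in the windows searched. A match is a string of letters and shows no binding. Only exact strings in these windows were searched, so a missing match does not show that a gene lacks an element.

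The wider chaperone network was read from 8 further lists with 93 tested genes, of which 11 were called higher and 11 lower, where 15.6% and 7.98% of all tested genes were. Among 17 tested HSP90 co-chaperones 5 fell and 0 rose by limma and by limma-voom, with a list median of −0.38. At an unadjusted p below 0.05, 9 were lower and 0 higher, with no share of all genes computed. The cyclophilin Ppid (CYP40) fell from 44.7 ± 1.55 to 22.2 ± 2.67 FPKM (SD, n = 3 each, here and for the genes that follow; adjusted p = 0.003928), and Ruvbl2 and Ruvbl1, the AAA ATPases of the R2TP complex, from 74.0 ± 5.22 to 39.9 ± 3.97 FPKM (adjusted p = 0.005936) and from 97.9 ± 16.0 to 52.5 ± 8.48 FPKM. Ptges3 (p23) and Nudc were the others. Of 25 tested J-domain proteins 4 rose, near the share of all tested genes, and 3 fell. Dnajb2 rose from 4.35 ± 0.130 to 10.5 ± 0.671 FPKM (adjusted p = 0.001853) and Hscb, which serves iron-sulfur cluster assembly, from 4.36 ± 1.58 to 9.25 ± 1.46 FPKM, while Dnajc11 fell from 14.9 ± 1.49 to 8.41 ± 0.805 FPKM.

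Of 15 tested prefoldin subunits and CCT cofactors, 2 rose and 1 fell. Here and for the lists that follow, 15.6% of all tested genes were called higher and 7.98% lower. Pdcl, a phosducin-like regulator of CCT, rose from 7.05 ± 2.04 to 15.5 ± 1.32 FPKM, Tbcb from 31.9 ± 2.76 to 47.6 ± 4.70 FPKM, and Pfdn4 fell from 25.9 ± 6.47 to 14.7 ± 2.10 FPKM. Of 13 mitochondrial chaperones and proteases Spg7 rose, Afg3l2 and Phb2 fell, and the list median was −0.31. Both Hspb2 and Hspb11 rose among the 3 tested further small heat shock genes. The other, Hspb6 (HSP20), was at 3.11, 2.93 and 9.15 FPKM in vehicle and at 7.66, 22.5 and 20.7 FPKM with KIRA6, with a log2 fold change of 1.69 that was not called (adjusted p = 0.06665). Hspb6 was called higher without Vehicle replicate 3 (2.17, adjusted p = 0.02058), without KIRA6 replicate 1 (2.17, adjusted p = 0.02891) and without both (2.65, adjusted p = 1.103e-05). Of 9 tested stress ubiquitin genes and further HSF1 targets 2 rose. The autophagy receptor Sqstm1 (p62) went from 111.2 ± 11.3 to 320.5 ± 29.5 FPKM (adjusted p = 0.001391) and Dedd2 from 0.82 ± 0.215 to 2.99 ± 0.281 FPKM (adjusted p = 0.002826). Limma and limma-voom called 0 of 9 tested HSP70 exchange, Bag and degradation factors (1 higher and 2 lower at an unadjusted p below 0.05) and 0 of 2 tested heat shock regulators (1 higher). For the unadjusted counts no share of all genes was computed, so they have no background. Of the 22 calls in these lists 6 were kept in every alternative, those of Dnajb2, Ppid, Ruvbl2, Hspb2, Sqstm1 and Dedd2. Leaving out 1 library kept 10 of the 22 for Vehicle replicate 1, 7 for Vehicle replicate 2, 20 for Vehicle replicate 3, 14 for KIRA6 replicate 1, 6 for KIRA6 replicate 2 and 8 for KIRA6 replicate 3.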

How the data were processed

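Poly(A)-selected, strand-keeping (dUTP) libraries were sequenced, per the labels' protocols. The authors deposited FPKM for each gene and library, with exonic lengths and GRCm39 coordinates. Per the submitters' processing notes, GRCm39 was the build and the tools were HISAT2 2.2.1, cutadapt 1.9.1, DESeq2 1.34.0 and HTSeq 0.6.1. Settings and annotation release were not given in the sources used here. Depth was estimated from the steps between low FPKM values: in each library 100.0% of 814 to 988 checked values came within 0.1 fragment of a whole number.

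Limma 3.58.1 (R 4.3.3) was run on log2(FPKM + 0.5) of 11778 genes whose mean reached 0.5 FPKM (KIRA6 against vehicle, intensity trend, robust empirical Bayes, two-sided, Benjamini-Hochberg adjustment over all tested genes), and an adjusted p below 0.05 was called. The scale understates changes of low genes. A permutation of 3 against 3 libraries cannot go below p = 0.1. Sums, shares and ratios are descriptions without a test. The share of all tested genes with an unadjusted p below 0.05 was not computed, so counts at that threshold have no background. Members and lists were chosen with earlier results of these data known. All members are named, with full statistics for called ones (for Hspa2 without its p) and the most abundant of each family. Of the other lists, up to 3 called genes per direction with the smallest p are named, and Ptges3, Nudc and Hspb6 were added after their values were seen. Sequence sharing used 50-base windows of GENCODE M21 transcripts, and promoters are RefSeq's. Alternatives changed the pseudocount, filter, scaling, variance model and weights, added a replicate block, used estimated fragments, or left libraries out. The steps were tested on simulated data.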

Additional observations from a re-analysis of the deposited data

How the results depend on the processing

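Over 18 alternatives, the 35 tested members gave 629 fold changes: 499 kept their direction and side of the threshold, 22 lost a call, 92 gained one and 16 changed sign without a call. None of the 179 values of the 10 called members changed sign. Members called higher numbered 4 to 7, where 6.94% to 40.3% of all genes were. Members called lower numbered 5 with all libraries, 2 with no filter on low values (3.18% of all genes), 17 with median-ratio scaling, 11 with quantile normalization, 14 with TPM, 22 with array weights (23.9% of all genes), 21 without both libraries that stood apart, and 1 to 16 with each library left out in turn. A replicate block called 18 lower, all 8 CCT subunits among them, and 5 higher (13.1% and 24.5% of all genes). Equal numbers were not taken as pairs, since their deviations correlated at 0.762, −0.469 and 0.738, and 4 of the 6 libraries correlated best with their own number. The log2 fold change of Hsp90ab1 turned to 0.0606 with array weights, 0.21 without both libraries and −0.257 to 0.0913 with each library left out in turn. That of Dnaja1 was −0.038 without both and −0.0256 to 0.363 with each left out, that of Hspb8 −0.10 with median-ratio scaling, −0.13 with array weights, −0.16 without both and −0.0466 to 0.159 with each left out, and that of Chordc1 −0.399 to 0.0269 with each left out. Trap1 was at 0.0343 and Hsf2 at −0.14 with quantile normalization, Dnajb6 at −0.0119 with array weights and Hsf1 at 0.0318 without both. The cause was not tested. Depth limits Hspa1a, Hspb1 and the vehicle level of Hspa2.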
